A study of Mus musculus with 9 samples.

Results

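Glucose enters the islet beta cell through a transporter and is then phosphorylated, and 8 genes of these steps were followed in RNA sequencing libraries of mouse islets of Langerhans, the hormone-secreting cell clusters of the pancreas. They are the facilitative transporter genes Slc2a1, Slc2a2 and Slc2a3, the sodium-coupled transporter genes Slc5a1 and Slc5a10, the hexokinase genes Hk1 and Hk2, and the glucose-6-phosphatase gene G6pc2. The rows were taken by symbol from a table of 52459 gene symbols, and all 8 symbols were present. The genes were selected on their db/db against WT and db/db against db/+ differences in these libraries, so their db/db values are given as a description, without a p value. All 8 passed the filter on low counts, but Slc5a10 did so only through the db/db libraries, since 7 of the 8 passed when those were left out.

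Islets came from mice of 12 weeks in 3 groups, wild type (WT), heterozygous (db/+) and homozygous mutant (db/db), with 3 libraries each. All 9 libraries carry the same strain label, BKS.Cg-Dock7m +/+ Leprdb/J, and are labelled wild type (+/+), heterozygous (+/-) or db/db (-/-). The db mutation lies in Lepr, which encodes the leptin receptor, and is carried in the germ line, so no tissue is spared. db/db mice are a model of obesity with diabetes. The labels do not say whether a library came from 1 animal or from pooled islets, so the p values rest on differences among libraries, which may be technical.

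Beta cells of mice take up glucose mainly through the high-capacity transporter encoded by Slc2a2 (GLUT2), while Slc2a1 (GLUT1) and Slc2a3 (GLUT3) encode high-affinity transporters found in many tissues. Phosphorylation then traps glucose in the cell, and the high-affinity hexokinases encoded by Hk1 and Hk2 are normally kept low in beta cells. G6pc2 encodes an islet glucose-6-phosphatase that returns glucose 6-phosphate to glucose and so opposes phosphorylation. Slc5a1 (SGLT1) and Slc5a10 (SGLT5) encode sodium-coupled sugar transporters best known from the gut and the kidney.

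Library totals lay between 8860024 and 11734886 counts, and 16826 genes were tested. Levels are CPM, counts per 1e6 of the TMM-normalised library size, and differences are log2 fold changes ± SE from edgeR. In these libraries 3 counts, the upper limit for a gene with 0 counts, correspond to 0.238 to 0.412 CPM, for counting error only. WT 1, WT 3 and db/db 1 held both Xist and Y-linked counts. The db/+ libraries held Y-linked counts (373 to 417 CPM) with Xist at most at 0.506 CPM, whereas the other 2 db/db libraries had Xist levels of 948 and 858 CPM, with Y-linked counts at most at 1.11 CPM. The labels give no sex, and sex-linked transcripts thus moved with genotype, most of all between db/db and db/+. Genes overlapping ribosomal RNA sequence took 17.9% and 13.3% of db/db 1 and db/db 2, but 0.0558% of db/db 3. They took 1.89% to 2.58% of the WT libraries and 0.022% to 0.0237% of the db/+ libraries. This share thus also separated db/+ from WT. Titles of the 3 db/db libraries and of WT 3 begin with another letter than the rest. Ins1, Ins2 and Iapp, which define beta cells, were abundant in every library, with Ins2 between 38230 and 59369 CPM. Iapp had means of 14196 CPM in WT, 15752 in db/+ and 33673 in db/db. Ins1 stood at 26257 to 40255 CPM in WT, 33791 to 39476 in db/+, and 14437, 32683 and 29325 in db/db. Of 7 beta cell marker genes, 1 rose and 4 fell by edgeR against WT, and likewise against db/+. Over all tested genes, 21.8% rose and 19.9% fell against WT, and 20.6% and 19.7% against db/+. In whole islets, fewer cells of a type and less RNA per cell cannot be told apart.

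Slc2a2 was far lower in db/db than in either other group. The gene lies on chromosome 3 (28697903 to 28728361 in GRCm38.p6, the assembly of mm10, like all positions here). Its CPM values were 1338, 1136 and 1077 for WT, 1325, 1215 and 1241 for db/+, and 95.4, 241 and 136 for db/db, so the highest db/db library lay far under the lowest of the other 6. The log2 fold change was -2.91 ± 0.32 against WT and -3.0 ± 0.32 against db/+. WT 3, whose title letter matches the db/db libraries, was at 1077 CPM, the lowest of the WT and db/+ libraries. As the only library outside db/db with that letter, it cannot separate letter from genotype. The beta cell hormone gene Ins2, at 45891, 56269 and 52610 CPM in db/db, overlapped the WT libraries. Other beta cell markers differed from it, with log2 fold changes against WT of 1.25 ± 0.12 for Iapp and -1.02 ± 0.08 for Pdx1. More of the 7 markers fell (4) than rose (1) against WT by edgeR, with a median log2 fold change of -1.02. Of all tested genes 19.9% fell and 21.8% rose. The part of beta cell content in the Slc2a2 level was not tested.

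Slc2a1, the GLUT1 gene (chromosome 4, 119108745 to 119137330), was a minor transcript in all groups. Libraries read 11.3, 9.75 and 11.7 CPM (WT), 9.86, 9.53 and 10.1 CPM (heterozygotes), and 9.19, 4.46 and 4.85 CPM (db/db). The lower db/db mean thus came from db/db 2 and db/db 3, and db/db 1 lay just under the other groups. The log2 fold change was -0.84 ± 0.22 against WT and -0.69 ± 0.22 against db/+, and -1.22 and -1.07 without db/db 1. Slc2a3, the GLUT3 gene (chromosome 6, 122727809 to 122802363), overlapped between groups, with CPM values of 5.71, 5.6 and 5.59 for WT, 8.57, 4.56 and 3.51 for db/+, and 7.68, 3.84 and 2.37 for db/db. Its log2 fold change was -0.31 ± 0.42 against WT and -0.29 ± 0.42 against db/+. The pseudogene Gm4482 lies inside the Slc2a3 locus, so counts of the pair can be shared.

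**Figure D1:**
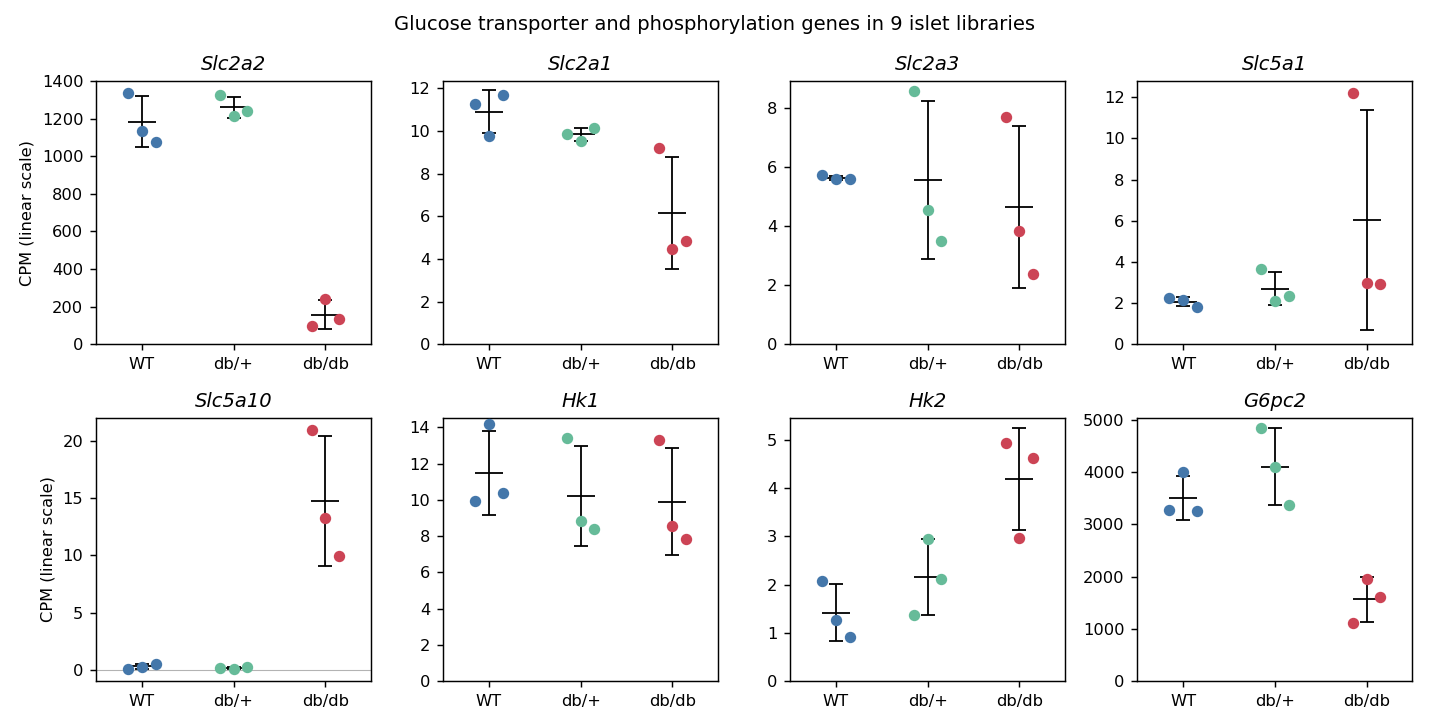
CPM on a linear axis in each library (coloured points) of WT, db/+ and db/db, with the group mean and SD (n = 3) in black, for the 8 genes. Slc2a2 and G6pc2 are lower and Slc5a10 and Hk2 higher in each db/db library than in any other, while the Slc5a1 mean in db/db rests on 1 library at 12.2 CPM.

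The sodium-coupled transporter genes behaved differently from each other. Slc5a10 (chromosome 11, 61672782 to 61720817) was close to silent outside db/db, with 1, 3 and 5 counts in WT and 2, 1 and 3 counts in db/+. It had 153, 107 and 92 counts in db/db, which is 21.0, 13.3 and 9.91 CPM against at most 0.508 CPM elsewhere. From the summed counts, 352 in db/db against 9 in WT and 6 in db/+, the ratio was 53.2 (95% exact interval 27.7 to 117) against WT and 86.9 (39.5 to 238) against db/+, intervals that cover counting error only. The fitted log2 fold change was 5.70 ± 0.44 against WT and 6.38 ± 0.47 against db/+. Every db/db library was thus above every other one. Genes that mark kidney, gut or liver epithelium were low in the same db/db libraries, with at most 14 counts of Umod, 3 of Slc34a1, 7 of Lct, 0 of Sis and 34 of Alb, although Vil1 reached 1195 counts. Umod, a kidney tubule gene, had at most 2 counts in a WT and 1 in a db/+ library. Of the 8 marker genes for these tissues 2 were tested, and 1 of them rose against WT, beside 21.8% of all tested genes.

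Fam83g, on the other strand, lies within the Slc5a10 locus, and the counting is not stated to use strand, so reads of the overlap cannot be told apart. Fam83g had a mean of 76.9 CPM in WT and 34.0 CPM in db/db, the opposite direction to Slc5a10.

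Slc5a1, the SGLT1 gene (chromosome 5, 33104219 to 33162699), had CPM values of 2.22, 2.17 and 1.83 for WT, 3.64, 2.11 and 2.37 for db/+, and 12.2, 2.97 and 2.91 for db/db. Only db/db 1 stood far from the rest, and db/db 2 and db/db 3 lay above WT but within the db/+ range. The log2 fold change of 1.51 ± 0.54 against WT became 0.50 without db/db 1, and that of 1.13 ± 0.52 against db/+ became 0.13. These values rest on 18 to 45 counts per WT or db/+ library and 24 to 89 per db/db library.

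The phosphatase and the hexokinases also went separate ways. G6pc2 (chromosome 2, 69211073 to 69227993) led the 8 genes per exon length in every group. It reached 3266, 3996 and 3261 CPM for WT, 4855, 4095 and 3369 for heterozygotes, and 1112, 1960 and 1615 for db/db. All db/db libraries were below all others, with a log2 fold change of -1.17 ± 0.20 against WT and -1.39 ± 0.20 against db/+. Slc2a2 and G6pc2 were both lowest in db/db 1 and highest in db/db 2 among the db/db libraries. The difference was larger for Slc2a2. The Slc2a2 level was between 0.196 and 0.294 of the G6pc2 level per exon length in the WT and db/+ libraries, and 0.0615, 0.0884 and 0.0602 of it in db/db.

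Hk2 (chromosome 6, 82725025 to 82774454), the hexokinase gene of muscle and fat, was low but higher in db/db, with CPM values of 4.94, 2.97 and 4.63 there, 2.06, 1.26 and 0.914 for WT, and 1.37, 2.95 and 2.12 for db/+. The db/db 2 library barely exceeded db/+ 2, with 24 and 35 counts, so the groups just fail to overlap. The log2 fold change was 1.53 ± 0.37 against WT and 0.96 ± 0.35 against db/+. Hk1 (chromosome 10, 62268855 to 62379920), the hexokinase gene of most tissues, showed no separation, with CPM values of 9.92, 14.2 and 10.4 for WT, 13.4, 8.86 and 8.40 for db/+, and 13.3, 8.55 and 7.87 for db/db. Its log2 fold change was -0.22 ± 0.24 against WT and -0.06 ± 0.24 against db/+.

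The sequence before the start sites is shown for Slc2a2 and G6pc2, both lower in db/db, and for Slc5a10, higher there. These are the 250 bases before a RefSeq start in GRCm38.p6, 5′ to 3′ on the gene's strand. Capitals mark matches, on either strand, to the letters ACGTG or GCGTG (the core bound by hypoxia-inducible factors), TGTTTAC (forkhead factors), GTTAAT (part of an HNF1 site), TAATTA (homeodomain factors) or CANNTG (the E-box of basic helix-loop-helix factors), where ACGTG and CANNTG overlap in CACGTG.
Slc2a2, chr3:28697653-28697902, plus strand: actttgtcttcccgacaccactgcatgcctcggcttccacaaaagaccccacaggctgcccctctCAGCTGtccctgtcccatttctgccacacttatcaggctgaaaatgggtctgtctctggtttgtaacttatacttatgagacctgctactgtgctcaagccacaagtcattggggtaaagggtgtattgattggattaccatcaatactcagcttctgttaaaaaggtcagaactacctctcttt
G6pc2, outer start, chr2:69210823-69211072, plus strand: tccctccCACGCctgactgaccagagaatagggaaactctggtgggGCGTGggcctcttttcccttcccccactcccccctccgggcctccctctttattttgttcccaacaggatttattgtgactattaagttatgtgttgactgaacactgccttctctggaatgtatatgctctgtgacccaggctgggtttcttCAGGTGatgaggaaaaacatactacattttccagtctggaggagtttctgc
G6pc2, inner start, chr2:69219699-69219948, plus strand: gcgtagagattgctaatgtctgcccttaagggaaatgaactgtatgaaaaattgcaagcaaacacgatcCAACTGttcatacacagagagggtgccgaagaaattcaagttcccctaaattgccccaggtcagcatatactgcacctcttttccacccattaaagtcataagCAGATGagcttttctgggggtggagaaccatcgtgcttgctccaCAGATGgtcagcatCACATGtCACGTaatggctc
Slc5a10, outer start, chr11:61720800-61721049, minus strand: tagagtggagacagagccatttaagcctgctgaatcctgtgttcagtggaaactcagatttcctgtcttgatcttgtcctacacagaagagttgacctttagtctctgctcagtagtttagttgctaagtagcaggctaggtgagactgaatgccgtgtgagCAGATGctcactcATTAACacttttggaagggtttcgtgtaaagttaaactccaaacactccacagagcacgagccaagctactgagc
The Slc2a2 window held 1 E-box match and none of the other letters. The inner G6pc2 window held 4 E-box matches and 1 of ACGTG, and the outer one 2 of GCGTG and 1 E-box. The outer Slc5a10 window held 1 match to GTTAAT and 1 E-box. The inner Slc5a10 window (chr11:61719986-61720235, not shown) held 2 E-box matches and none of the other letters. Of all 32851 windows of this length, 66.2% held the E-box letters, 28.2% GCGTG, 16.6% ACGTG, 6.43% GTTAAT, 4.84% TAATTA and 3.17% TGTTTAC. A window was found for 7 of the 8 genes, and those of Slc2a1, Slc5a1 and Hk2 held ACGTG. A match is a run of letters, not a bound site.

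Counted over the 8 genes, 6 passed an adjusted p of 0.05 in edgeR's quasi-likelihood test against WT, where 41.7% of all tested genes did, and 5 passed against db/+, where 40.3% did. The groups did not overlap for 6 genes against WT and 5 against db/+, beside 51.5% (26.2% higher, 25.3% lower) and 52.2% (26.2% higher, 26% lower) of all tested genes. Since the genes were chosen with these contrasts known, nothing is read from the counts. The median log2 fold change of the 8 was -0.27 against WT and -0.17 against db/+, beside 0.01 over all tested genes in both comparisons, which share the db/db libraries.

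Between heterozygous and WT islets no gene of this set was called by edgeR. With 8 genes and the low shares of all tested genes given here, such counts say little about the set. Of the 8 genes, 0 passed the edgeR test for db/+ against WT, where 1.43% of all tested genes did, and 0 of 8 passed with limma-voom, 0 of the 4 that DESeq2 gave an adjusted p, and 0 of 8 had an unadjusted edgeR p under 0.05. The groups overlapped for all 8, while they did not for 22.5% of all tested genes. The log2 fold changes ran from -0.68 ± 0.79 for Slc5a10 to 0.57 ± 0.37 for Hk2, with edgeR adjusted p values from 0.506 to 0.99. Slc2a2 differed by 0.09 ± 0.30 (adjusted p = 0.928) and G6pc2 by 0.23 ± 0.20 (adjusted p = 0.65). The G6pc2 value alone passed in 1 alternative, at an adjusted p of 0.046 with acinar content as a covariate, with a range of 0.046 to 0.968 over the alternatives. A miss of the threshold does not show that the groups are alike, and for Slc5a10 the counts are too few to tell.

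Levels of different genes can be set side by side per length of exon, and this puts Slc2a2 and G6pc2 far above the rest. In WT, G6pc2 was at 1777 ± 214 CPM per kb (mean ± SD, n = 3 here and below), Slc2a2 at 430 ± 49.7, Slc2a1 at 3.82 ± 0.356, Hk1 at 1.35 ± 0.274, Slc2a3 at 0.778 ± 0.00958, Slc5a1 at 0.503 ± 0.0517, Hk2 at 0.237 ± 0.0986 and Slc5a10 at 0.121 ± 0.0908. Of neighbours in that order, the mean ± SD ranges overlapped only for Hk2 and Slc5a10. In db/+ the order was the same, but neighbours among Hk1, Slc2a3, Slc5a1 and Hk2 (1.2 ± 0.325, 0.765 ± 0.369, 0.657 ± 0.199 and 0.360 ± 0.132 CPM per kb) overlapped in mean ± SD range. Hk2 and Slc5a10 (0.0692 ± 0.0339) did not overlap in db/+. In db/db, G6pc2 (792 ± 216) and Slc2a2 (57.2 ± 27.4) still led, and Slc5a10 came next at 6.23 ± 2.40 CPM per kb. Below it, Slc2a1 (2.16 ± 0.921), Slc5a1 (1.47 ± 1.30), Hk1 (1.16 ± 0.348), Hk2 (0.701 ± 0.177) and Slc2a3 (0.639 ± 0.379) each overlapped the next in the same sense.

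**Figure D2:**
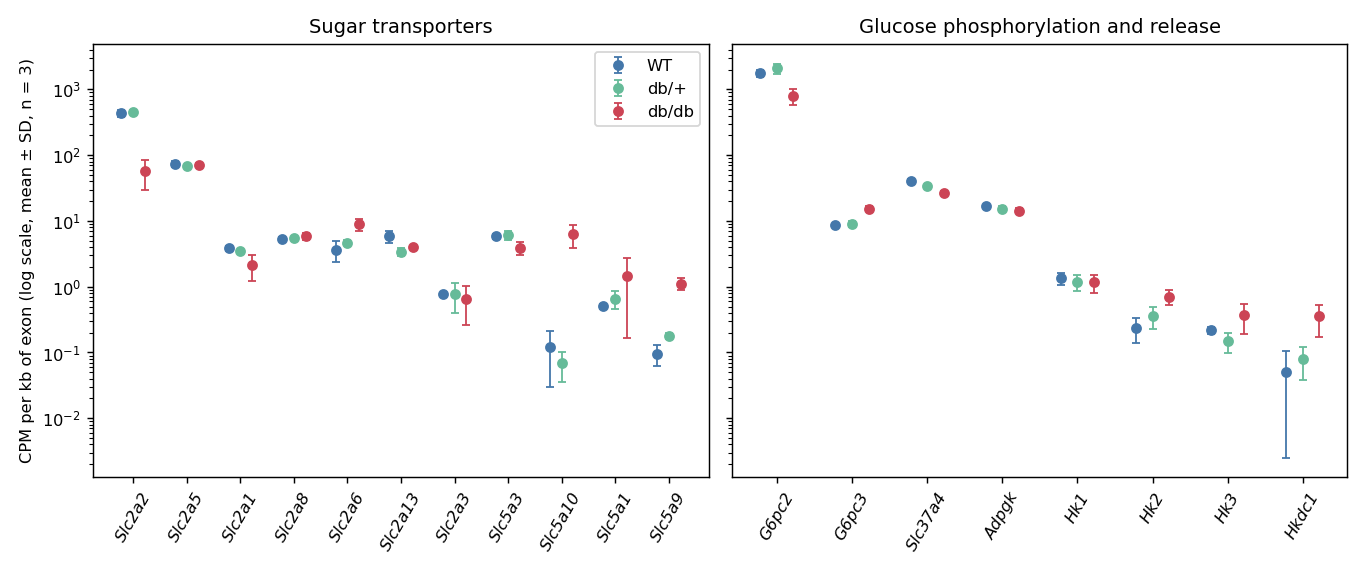
Mean CPM per kb of exon on a log axis, with SD (n = 3; a lower bar is shortened where it would reach 0), for sugar transporter genes (left) and genes of glucose phosphorylation and release (right) in WT, db/+ and db/db. G6pc2 leads the right panel in each group, Slc2a2 leads the left one in WT and db/+ but lies below Slc2a5 in db/db, and Slc5a10 moves from 0.121 in WT to 6.23 in db/db.

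Among the GLUT genes Slc2a1, Slc2a2 and Slc2a3 together, per exon length, Slc2a2 made up 98.77% to 99.03% in WT and 99.05% to 99.11% in db/+. Its share was 89.0%, 97.7% and 96.1% in db/db. Slc2a1 made up 8.28%, 1.74% and 3.31% in db/db, against at most 1.03% elsewhere, although its own level was not higher there. Slc2a2 thus remained the main GLUT transcript of the 3 in each db/db library.

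Summed markers of fibroblast or pericyte, duct, endothelial and macrophage cells were higher in each db/db library than in any other, most of all in db/db 1. Acinar sums were above WT in each, but db/db 2 and db/db 3 lay within the db/+ range. Alpha, delta and PP cell markers did not rise as lists. Of its group, db/db 1 had the highest Slc5a1, Slc2a1, Slc2a3, Slc5a10, Hk1 and Hk2 and the lowest Slc2a2 and G6pc2. The 23 acinar genes, all tested, summed to 6966 to 13160 CPM in WT, 16100 to 36750 in db/+ and 54590, 19520 and 20300 in db/db, and 15 of them rose against WT, while 1 rose and 1 fell against db/+. The 12 fibroblast, stellate cell and pericyte genes summed to 256 to 367 CPM in WT, 249 to 377 in db/+ and 2094, 793 and 1340 in db/db. Against WT 8 of these 12 rose. The 12 macrophage genes summed to 104 to 146, 105 to 131, and 290, 186 and 170 CPM, with 3 risen against WT. The 12 endothelial genes summed to 624 to 682, 607 to 670, and 977, 736 and 723 CPM, with 7 risen against WT. No marker of these lists was at 0 in any library. Of 10 alpha cell genes 7 fell and 3 rose against WT, with sums of 14350 to 22620 CPM in WT and 11090 to 13060 in db/db. Of 6 delta and PP cell genes, 0 rose and 1 fell against WT, and 0 rose and 2 fell against db/+. Of 10 duct cell genes, 9 were tested and 7 rose against WT, with sums of 308 to 319, 317 to 349, and 1274, 734 and 821 CPM. Beside these counts, 21.8% of all tested genes rose and 19.9% fell against WT, and 20.6% and 19.7% against db/+. The share of macrophage genes that rose against WT was thus near that of all tested genes, while against db/+ 5 of the 12 rose. The part of these cell types in the levels of the 8 genes was not tested.

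**Figure D3:**
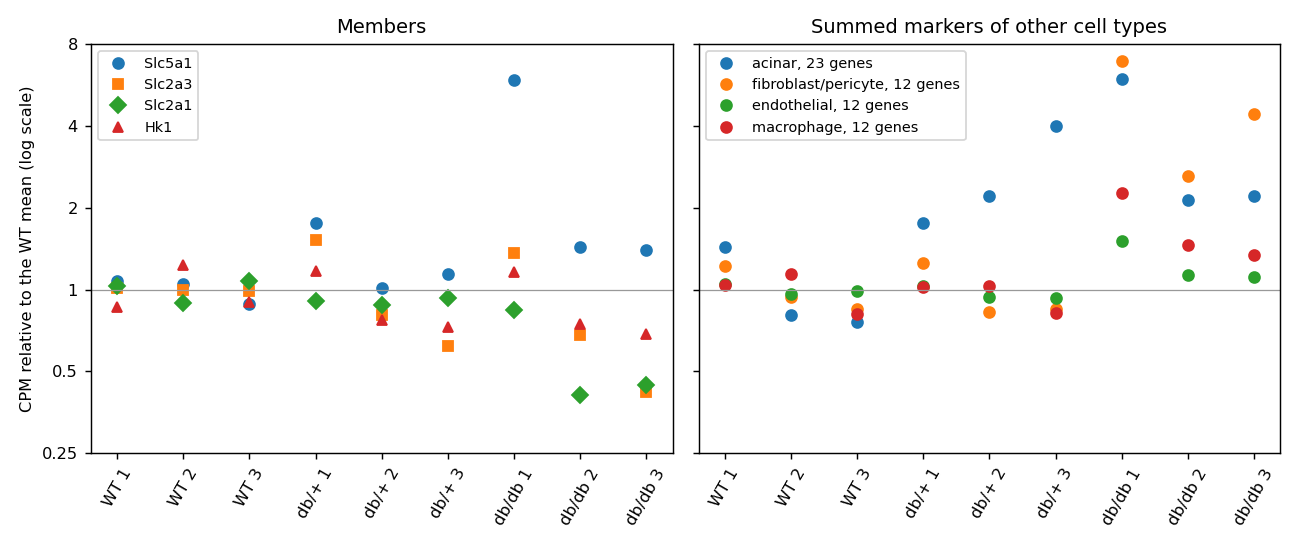
Level of 4 genes (left) and summed CPM of marker genes of 4 other cell types (right) in each library, as a ratio to the WT mean on a log axis. In db/db 1, Slc5a1 at 12.2 CPM and the acinar and fibroblast or pericyte sums stand highest.

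A covariate for the mean log2 CPM of acinar genes, or of endothelial, macrophage and fibroblast or pericyte genes together (stroma), left Slc2a2 lower by -2.46 and -2.35 and Slc5a10 higher by 4.74 and 4.93 against WT. G6pc2 moved from -1.17 to -0.46 with the acinar and -0.81 with the stroma covariate, and Hk2 from 1.53 to 0.85 and 1.04. Slc5a1 moved from 1.51 to -0.02 and -0.76, and Slc2a1 from -0.84 to -1.47 and -1.48. The stroma mean was 4.39 to 5.40 in db/db and 3.34 to 3.99 elsewhere, and the acinar mean 8.14 to 9.45 against 6.57 to 8.78, so the covariates follow genotype wholly or in part and cannot be told apart from it. With the title letter as a covariate, which rests on WT 3 alone within the second letter, Slc2a2 was at -2.77, G6pc2 at -1.06, Slc5a10 at 4.82 and Hk2 at 2.18 against WT. With Y-linked counts as a covariate, added after seeing the data, Slc2a1 was at -0.21, Slc2a2 at -3.64 and G6pc2 at -1.66 against WT, and at 0.03, -3.81 and -1.94 against db/+.

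**Figure D4:**
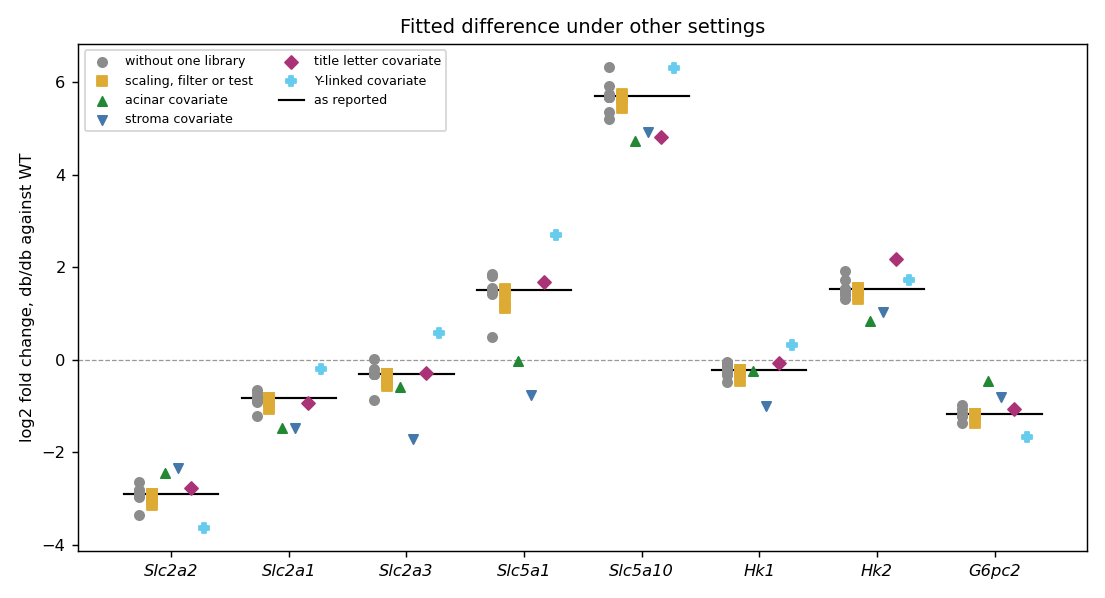
Log2 fold change of db/db against WT for each gene as reported (black line) and under other settings: 1 library left out, other scaling, filters or tests, or a covariate. Slc2a2, G6pc2, Hk2 and Slc5a10 keep their side of 0 under the settings drawn, while Slc2a3, Slc5a1 and Hk1 cross it under at least 1.

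Other genes of glucose transport and phosphorylation, from 5 lists with 42 genes of which 32 were tested, changed in both directions. Against WT 16 rose, 7 fell and 9 did not pass the edgeR test, with a median log2 fold change of 0.36 beside 0.01 over all tested genes. Against db/+ 15 rose, 5 fell and 12 did not pass, with a median of 0.27. The background for these counts is 21.8% higher and 19.9% lower against WT, and 20.6% and 19.7% against db/+.

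Slc2a4, the insulin-responsive GLUT4 gene, was too low to test, with a mean of at most 0.365 CPM in any group. Hkdc1, a hexokinase gene next to Hk1, rose by 2.68 ± 0.66 against WT (edgeR adjusted p = 0.00537) from a mean of 0.260 to 1.81 CPM. Its rise against db/+ (2.08 ± 0.61, adjusted p = 0.0145) did not pass without db/+ 2, db/+ 3 or db/db 1, at adjusted p = 0.0652, 0.0577 and 0.0643.

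Bifunctional enzyme genes that set fructose 2,6-bisphosphate, a regulator of glycolysis, diverged. In their list of 12 tested phosphorylation genes and regulators, 4 rose and 4 fell against WT, and 5 rose and 3 fell against db/+. Pfkfb2 fell from 180 ± 12.4 CPM in WT to 74.3 ± 8.63 in db/db (-1.28 ± 0.09), and Pfkfb4 fell by 0.75 on the log2 scale (edgeR adjusted p = 0.00214). Pfkfb3 rose from 9.41 ± 0.931 to 25.2 ± 3.97 CPM (1.42 ± 0.16). Mlxipl, which encodes the glucose-responsive transcription factor ChREBP, fell from 314 ± 7.93 to 141 ± 16.7 CPM. Txnip and Arrdc4, arrestin family genes induced by glucose through ChREBP and related factors, rose instead. Txnip went from 564 ± 27.3 CPM in WT to 1411 ± 41.2 in db/db, and Arrdc4 from 14.8 ± 0.637 to 85.7 ± 12.6 CPM, with every db/db library above every other. The edgeR adjusted p values against WT were 1.98e-07 for Pfkfb2, 9.68e-06 for Pfkfb3, 7.99e-05 for Mlxipl, 1.68e-07 for Txnip and 1.73e-08 for Arrdc4. Against db/+ the log2 fold changes were -1.44 (Pfkfb2), 2.17 (Pfkfb3), -0.81 (Mlxipl), 0.80 (Txnip) and 2.29 (Arrdc4), each past the edgeR test.

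**Figure D5:**
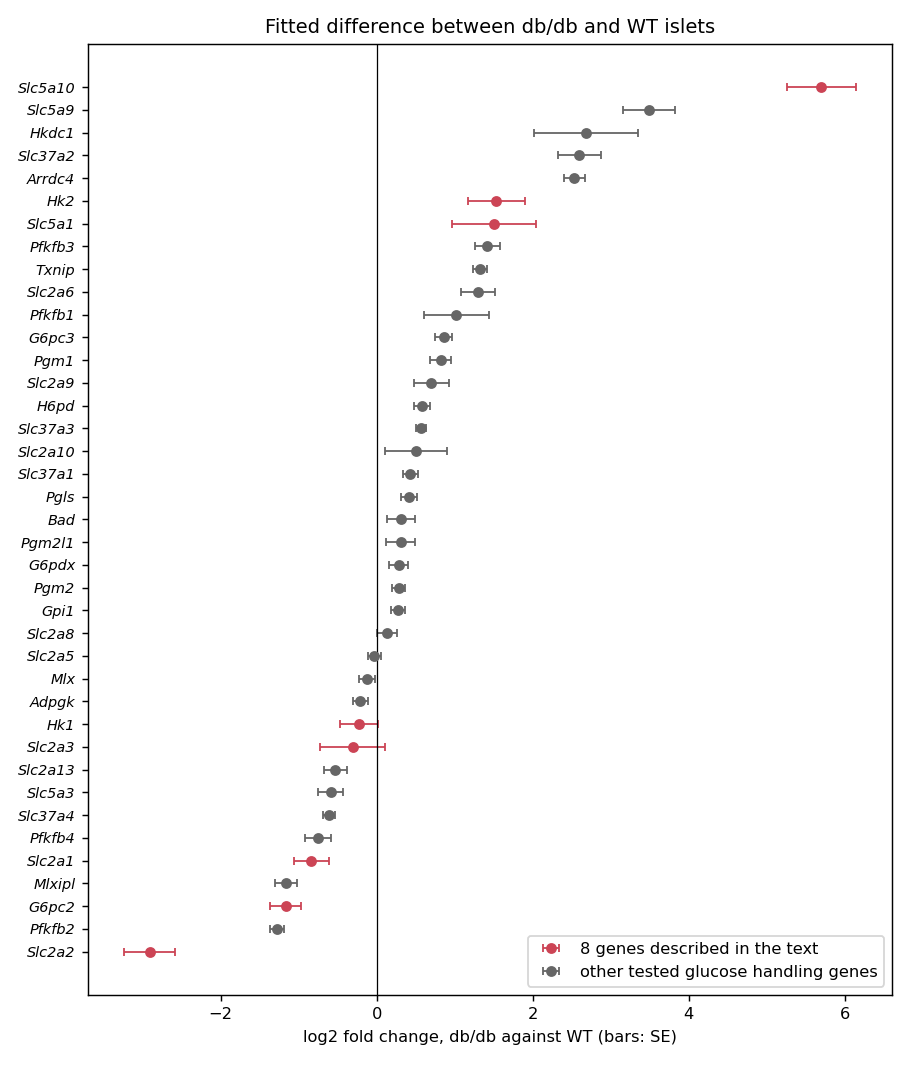
Log2 fold change of db/db against WT with SE for the 8 genes (red) and other tested genes of glucose transport, phosphorylation and release (grey), in order. Slc5a10 and Slc2a2 stand at the ends, at 5.70 and -2.91.

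In the list of glucose 6-phosphate release and transport, 4 of 5 tested genes rose and Slc37a4 fell against WT, the opposite balance to G6pc2. G6pc3, the phosphatase gene of most tissues, rose from 19.0 ± 1.0 to 34.4 ± 2.68 CPM (0.86 ± 0.11, edgeR adjusted p = 2.69e-05). Slc37a2, a sugar phosphate exchanger gene, rose by 2.60 ± 0.28 (adjusted p = 7.67e-06), to a mean of 9.32 CPM. Slc37a4, the glucose 6-phosphate transporter that feeds the phosphatases, fell from 99.9 ± 5.03 to 65.3 ± 4.27 CPM (-0.61 ± 0.08, edgeR adjusted p = 2.40e-05). G6pc, the liver phosphatase gene, was too low to test. Of 7 enzyme genes that act next on glucose 6-phosphate, 5 rose and 0 fell against WT by edgeR, including Pgm1 (0.82 ± 0.13), H6pd (0.58) and Pgls (0.41), and against db/+ 3 rose and 0 fell.

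The other SLC2 genes gave no common direction, with 2 of 6 tested risen and 1 fallen against WT. Slc2a5, the fructose transporter gene, was the second most abundant sugar transporter gene per length in WT at 73.1 ± 7.57 CPM per kb, and stood at 71.5 ± 4.61 in db/db (-0.03 ± 0.08, edgeR adjusted p = 0.787). In db/db its level per length was above that of Slc2a2 (57.2 ± 27.4), within the spread of the latter. Slc2a6, which encodes a lysosomal transporter, rose from 11.7 ± 4.0 to 28.4 ± 5.84 CPM (1.30 ± 0.22, edgeR adjusted p = 7.64e-04). The urate transporter gene Slc2a9 rose by 0.70 (adjusted p = 0.0217), which did not pass without WT 1, WT 2 or db/db 3 (up to 0.0948). Slc2a13, the proton-inositol symporter gene, fell by 0.53 on the log2 scale (adjusted p = 0.0111). Of the SLC5 list, Slc5a9, which encodes a sodium-coupled mannose and glucose transporter, rose by 3.49 ± 0.33 against WT and 2.62 ± 0.30 against db/+, to 4.94, 7.06 and 5.39 CPM in db/db from at most 1.01 CPM elsewhere. The inositol transporter gene Slc5a3 fell by 0.59 on the log2 scale against WT (edgeR adjusted p = 0.0128).

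For db/+ against WT, 1 of the 32 genes rose and 2 fell by edgeR, beside 0.606% and 0.820% of all tested genes. Txnip rose by 0.52 ± 0.09 (adjusted p = 0.0251), Slc2a13 fell by 0.78 (adjusted p = 0.0343) and Pfkfb3 fell by 0.76 (adjusted p = 0.0477). Each call ended when single libraries were left out. That held for Txnip without WT 3, db/+ 1 or db/+ 2 (up to 0.146), for Slc2a13 without WT 2, WT 3, db/+ 1, db/+ 3 or db/db 2 (up to 0.174), and for Pfkfb3 without any 1 library except db/db 1 (0.0501 to 0.183).

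Of 14 transcription factor genes known to act on beta cell glucose genes, 13 were tested, and 8 fell and 1 rose against WT by edgeR. Pdx1 fell by 1.02 ± 0.08, Neurod1 fell by 1.03 ± 0.09 and Foxa2 fell by 0.84 ± 0.09, all regulators of beta cell genes. Hnf4a, a regulator shared with liver, rose by 0.68 ± 0.12, and its edgeR adjusted p of 4.87e-04 became 0.0816 with Y-linked counts as a covariate. Against db/+ 7 fell and 2 rose. Among the risen was Epas1, a hypoxia-inducible factor gene (1.05, edgeR adjusted p = 0.0162), which stood at 89.3, 49.5 and 49.7 CPM in db/db. That call was lost without db/+ 2 (adjusted p = 0.053) or db/+ 3 (0.0573), with a range of 6.65e-06 to 0.523 over the alternatives. Hif1a, another hypoxia-inducible factor gene, was among those that fell, by 0.33 ± 0.08 against db/+ (edgeR adjusted p = 0.004). The background for these counts is the one given above.

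For each of the 8 genes, the tested genes with the most similar pattern over the 9 libraries were found by the smallest root mean square difference of log2 CPM, each gene taken relative to its WT mean, among 13752 candidates. Slc2a2 was followed most closely by Ppp1r1a, a phosphatase inhibitor gene (difference of 0.15), Tmem215 (0.20) and Gad1, the glutamate decarboxylase gene (0.27). Ppp1r1a had means of 243 CPM in WT, 261 in db/+ and 30.6 in db/db. G6pc2 was nearest to Dgke (0.12), Ang (0.14) and Pde5a (0.14), and Slc2a1 to Pot1b (0.15), Zfp971 (0.17) and Dclre1c. Slc5a1, high in db/db 1, was nearest to Sult1a1 (0.18), Gas6 (0.22) and Gng11 (0.24). Hk1 was nearest to Scube1 (0.11), Arhgap10 (0.16) and Cttnbp2nl (0.18), and Hk2 to Col7a1 (0.29) and Usp43 (0.31) beside a gene named by its clone only. Slc2a3 had Col4a4 (0.29) and H2-Ab1 (0.30) nearest. Slc5a10 had larger differences, with Itih5l-ps (0.60), Kel (0.62) and Tgm3 (0.67) nearest, of which the first pair had 0 CPM in WT and db/+. With 1 to 5 counts of Slc5a10 per WT or db/+ library, counting error enters these differences, and its part was not tested.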

How the data were processed

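RNA of purified islets was extracted with Trizol and libraries were made with a ribosomal RNA depletion protocol, per the labels' protocols. The submitters' processing notes name bcl2fastq 2.20.0.422, TopHat2 2.0.14 and mm10. The counting program, annotation and strand setting were each not given in the sources used here. The authors deposited 1 table of raw gene counts for 52459 symbols, of which 1 column matched no sample and was not used. Groups came from the genotype labels, 3 libraries each, with replicates numbered in accession order. Genes were filtered with filterByExpr, leaving 16826, and scaled by TMM. The quasi-likelihood test of edgeR 4.0.16 (R 4.3.3) was fitted to all 9 libraries with 3 group terms, robust, and p values were adjusted by Benjamini and Hochberg's method across the tested genes, with 0.05 as threshold. The SE is the absolute log2 fold change divided by the square root of F. The fit was run on simulated counts, where recovered calls, false calls and signs were checked but the SE was not. That simulation had the same spread for every gene and fewer changed genes than the db/db comparisons. The 6 residual degrees of freedom gave a common biological coefficient of variation of 0.129.

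Exon lengths came from GENCODE vM1, used for lengths only, and positions and promoters from RefSeq GRCm38.p6, where 14759 of the tested symbols (87.7%) were found. Named genes were the 8 genes, Slc2a4, Slc37a4, G6pc3, Mlxipl and Txnip, up to 3 higher and 3 lower genes of each list by adjusted p, genes past the threshold for db/+ against WT, and the 3 most similar patterns per gene (predicted genes and genes under 1 CPM in their highest group left out). Hkdc1, Hif1a and Slc2a5 are named outside this rule, and some genes that meet it, such as Slc37a3, are not described. Genes overlapping Slc5a10 or lying within 20 kb were chosen after values were seen. The genes and lists were chosen with earlier results of these data known. Alternatives were other scaling, filters and tests (DESeq2 1.42.0, limma 3.58.1), covariates, and leaving out libraries. A gene of the lists is not reported here, though it is among those counted.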

Additional observations from a re-analysis of the deposited data

How the results depend on the processing

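Of the 25 alternatives, those for the 8 genes kept direction and stayed within the replicate spread in 175 of 200 values against WT and 173 of 200 against db/+, and 194 of 195 with an adjusted p kept their side of the threshold for db/+ against WT, where DESeq2 gave none for 4 genes. Directions turned for Hk1 against db/+ with the title letter as a covariate (0.16), with Y-linked counts as a covariate (0.54) and without db/+ 1 (0.18), db/db 2 (0.04) or db/db 3 (0.09), and against WT with Y-linked counts (0.31). They turned for Slc5a1 against WT with acinar (-0.022) or stroma content (-0.76) as a covariate, and against db/+ with stroma content (-1.25). They turned for Slc2a3 against WT with Y-linked counts (0.58) or without db/db 3 (0.018), and against db/+ with Y-linked counts (0.73) or without db/+ 1 (0.17) or db/db 3 (0.05), and for Slc2a1 against db/+ with Y-linked counts (0.026). With 1 library left out, the log2 fold change of Slc2a3 ran from -0.871 to 0.018 against WT and from -0.84 to 0.17 against db/+, and that of Hk1 against db/+ from -0.311 to 0.183.

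The count of all genes changed in db/+ against WT (240) was 768 with no filter, 633 with DESeq2, 46 with non-robust dispersion, 45 with the title letter, 100 with acinar content, 511 with stroma content, 407 with Y-linked counts, 97 without WT 1, WT 3 and db/db 1, and 23 to 430 with 1 library left out. For db/db against WT (7018) it was 4425 with the title letter, 3410 with acinar and 2879 with stroma content, and 4449 without WT 1, WT 3 and db/db 1. Against db/+ (6773) it was 2033 with the title letter, 2770 with stroma content, 4402 with Y-linked counts and 4511 without db/db 1 and db/db 2. The other glucose genes against WT (23) numbered 13 with acinar and 12 with stroma content, and against db/+ (20) 12 with the title letter and 10 with stroma content. For db/+ against WT (3) they numbered 0 with non-robust dispersion or the title letter, 1 with acinar content, 1 without WT 1, WT 3 and db/db 1, and 0 to 3 with 1 library left out. The causes were not tested. Scaling by library totals alone shifted the median of all genes by -0.22 against WT and split the calls into 2176 higher and 5317 lower, in place of 3670 and 3348, and against db/+ shifted it by -0.23, with 2011 higher and 5265 lower in place of 3459 and 3314. The Y-linked covariate and the joint omissions were chosen after seeing the data.

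No paired analysis was possible because the labels give no replicate numbers that the groups share. Depth limits Slc5a10 outside db/db, at 1 to 5 counts a library, and Hk2 and Slc5a1, at 9 to 89 counts.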

Other observations

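Genes next to the described loci were looked at after values were seen. Spc25, a kinetochore gene 4860 bases from G6pc2, was lower in db/db like its neighbour, with means of 279 CPM in WT, 337 in db/+ and 148 in db/db (-0.92 ± 0.21 against WT, edgeR adjusted p = 0.00945). With acinar content as a covariate it differed by -0.11 (adjusted p = 0.622). On the other side of G6pc2, Abcb11, the bile salt export pump gene, was higher in db/db at 2.56 CPM against 1.26 in WT (1.02 ± 0.33, adjusted p = 0.0239), which left-out libraries moved between 0.0185 and 0.0702. Fam83g, which overlaps Slc5a10 on the other strand, was lower (-1.17 ± 0.11 against WT, edgeR adjusted p = 2.13e-06), and Grap, 5 bases beyond the end of Slc5a10, did not pass (0.56 ± 0.38, adjusted p = 0.253).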
